A study of Mus musculus with 16 samples.

Results

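Cytochrome P450 enzymes of families 1 to 3 are the heme proteins with which hepatocytes oxidise drugs, steroids, fatty acids and environmental chemicals. In mouse primary hepatocytes, 60 of the 55416 gene IDs measured carried a symbol of Cyp1, Cyp2 or Cyp3 followed by a letter and a number, and these 60 genes are described here. Symbols marked as pseudogenes (23) were left out, as was 1 symbol with a pair of letters after the family number. Of the 60 genes, 28 reached 1 TPM, a share of all transcripts corrected for their length, in at least 4 of the 16 samples and were tested. Another 21 were above 0 in some sample but under that level, and 11 were at 0 in every sample.

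The study compared 4 groups of 4 samples. HKO cells carried Cre recombinase driven by the albumin promoter (Alb-cre+) in a cross made to delete Smpd3, a neutral sphingomyelinase, in hepatocytes, and FLOX cells carried no such Cre (Alb-cre-). Each genotype was kept for 24 h with palmitic acid, a saturated fatty acid, at 0.4 mM or with vehicle. The strain, sex and age of the mice are not in the labels, which also do not say whether the numbered samples came from separate mice or cultures, so p-values measure only the spread between these samples. Cre is present in HKO cells alone, so that effects of Cre and of the deletion cannot be told apart.

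A P450 enzyme takes electrons from NADPH through the reductase Por, helped for some substrates by cytochrome b5, and inserts an oxygen atom into its substrate. Family 1 genes are induced through the aryl hydrocarbon receptor (AHR), and many Cyp2b, Cyp2c and Cyp3a genes through the constitutive androstane receptor (CAR, Nr1i3) and the pregnane X receptor (PXR, Nr1i2). In mouse liver many of these genes are zonated, with Cyp2e1, Cyp1a2 and Cyp2a5 higher around the central vein and Cyp2f2 higher around the portal vein, and several differ between the sexes. Cultured hepatocytes are known to lose part of their P450 expression.

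Smpd3 was low in every HKO sample, at 6.44 to 9.15 TPM with palmitic acid and 4.25 to 5.89 TPM with vehicle, against 42.5 to 47.8 TPM in FLOX cells with palmitic acid and 27.8 to 37.1 TPM in FLOX cells with vehicle. The 10 hepatocyte markers summed to 47513 to 49045 TPM in HKO cells with palmitic acid, 61565 to 62795 in HKO cells with vehicle, 45221 to 46700.2 in FLOX cells with palmitic acid and 57853 to 58522 in FLOX cells with vehicle. With palmitic acid 9 of the 10 fell in HKO cells and 8 in FLOX cells, beside the P450 changes below. Of all tested genes 13.1% and 11.5% fell. In HKO against FLOX cells 6 of the 10 were higher and 1 lower with palmitic acid, and 4 were higher and 1 lower with vehicle. Of all tested genes 4.24% were higher and 5.50% lower with palmitic acid, and 4.11% and 7.56% with vehicle. Markers of other cells were mostly low: under 1 TPM in all groups for 8 of 10 macrophage, 6 of 10 endothelial, 8 of 10 stellate cell, all 6 leukocyte and 2 of 4 erythroid genes, with Timd4 and Nkg7 at 0 in every sample and Lrat at most 0.0200 TPM. In both genotypes palmitic acid raised Cd68, the one tested macrophage gene, and Ecm1, the one tested stellate gene, and Cd68 was higher in HKO cells too. The macrophage list summed to 81.6 to 108 TPM in HKO cells with palmitic acid, 60.9 to 70.8 in HKO cells with vehicle, 56.7 to 69.1 in FLOX cells with palmitic acid and 49.2 to 55.6 in FLOX cells with vehicle. Of the 4 tested endothelial genes Stab2 was called, lower with palmitic acid in HKO cells and higher in HKO cells with vehicle. Of the 8 cholangiocyte genes 3 were under 1 TPM and Cftr was at 0. Their sum was 622 to 667 TPM in HKO cells with palmitic acid, 485 to 512 in HKO cells with vehicle, 454 to 493 in FLOX cells with palmitic acid and 368 to 383 in FLOX cells with vehicle, mostly from Cldn4 and Spp1, while Krt19 and Krt7 fell with palmitic acid. The part of these genes in the P450 results was not tested. The Y-linked genes Ddx3y, Eif2s3y, Kdm5d and Uty were expressed in all groups, Xist did not pass 0.01 TPM, and all 8 genes of a female-biased liver list stayed under 1 TPM. Of 8 male-biased genes 3 were higher and 1 lower in HKO than in FLOX cells under each treatment. FLOX replicate 1 with palmitic acid and FLOX replicate 1 with vehicle stood at opposite ends of the third principal component, which held 7.53% of the variance.

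The 60 genes together took a smaller share of the transcripts in HKO than in FLOX cells and with palmitic acid than with vehicle. Their summed level was 1739 ± 10 TPM in HKO cells with palmitic acid, 2579 ± 43 in HKO cells with vehicle, 2112 ± 59 in FLOX cells with palmitic acid and 3039 ± 61 in FLOX cells with vehicle (4 samples a group, ± SD, here and for all means below). With palmitic acid the sum was 0.674 times that with vehicle in HKO cells and 0.695 times in FLOX cells. The HKO sum was 0.823 times the FLOX sum with palmitic acid and 0.849 times with vehicle. The 4 groups did not overlap in this sum. In such bulk samples, fewer hepatocytes and less P450 RNA per hepatocyte cannot be told apart.

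The Cyp2c subfamily held the largest share of the sum in FLOX cells and in HKO cells with vehicle, and Cyp2d in HKO cells with palmitic acid. Cyp2c summed to 471 ± 4.3 TPM in HKO cells with palmitic acid, 930.0 ± 21 in HKO cells with vehicle, 629.6 ± 14 in FLOX cells with palmitic acid and 1137 ± 11 in FLOX cells with vehicle. Cyp2d summed to 547 ± 9.1 TPM in HKO cells with palmitic acid, 677 ± 23 in HKO cells with vehicle, 551 ± 38 in FLOX cells with palmitic acid and 667 ± 34 in FLOX cells with vehicle. It was lower with palmitic acid and nearly level between genotypes. The Cyp3a sum behaved the other way, at 203 ± 6.2 TPM in HKO cells with palmitic acid and 201 ± 1.3 in HKO cells with vehicle, against 316 ± 35 TPM in FLOX cells with palmitic acid and 341 ± 8.0 in FLOX cells with vehicle.

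**Figure D1:**
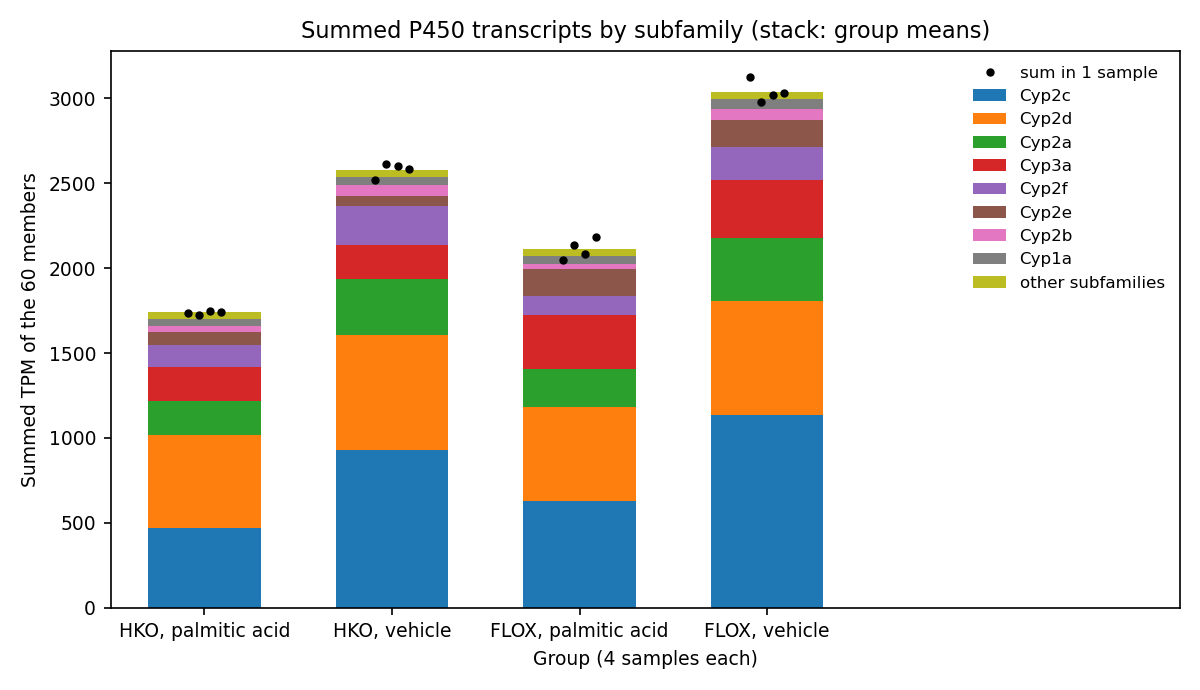
Summed TPM of the 60 genes in the 4 groups, with coloured stacks for the group means of each subfamily and black points for the total of each of the 4 samples. The totals of HKO cells with palmitic acid are the lowest and those of FLOX cells with vehicle the highest.

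A few genes made up most of the P450 transcripts. Cyp2c70 ranked first in every group, with 19.9% of the summed mean level in HKO cells with palmitic acid, 31.1% in HKO cells with vehicle, 20.4% in FLOX cells with palmitic acid and 30.0% in FLOX cells with vehicle. Cyp2d10 ranked second in every group. The third place was held by Cyp2a12 in HKO cells and by Cyp3a11 in FLOX cells, and with vehicle the FLOX samples of Cyp3a11 overlapped those of Cyp2a12. Over the 16 samples the tested genes averaged between 1.39 TPM for Cyp2u1 and 622 TPM for Cyp2c70. The untested genes were led by Cyp2c40, with a mean of 0.653 TPM and a highest value of 1.34 TPM. Cyp2a4, Cyp2b9 and Cyp3a44, which are known to be female-biased in mouse liver, were among the untested genes and each stayed at or under 0.0900 TPM.

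**Figure D2:**
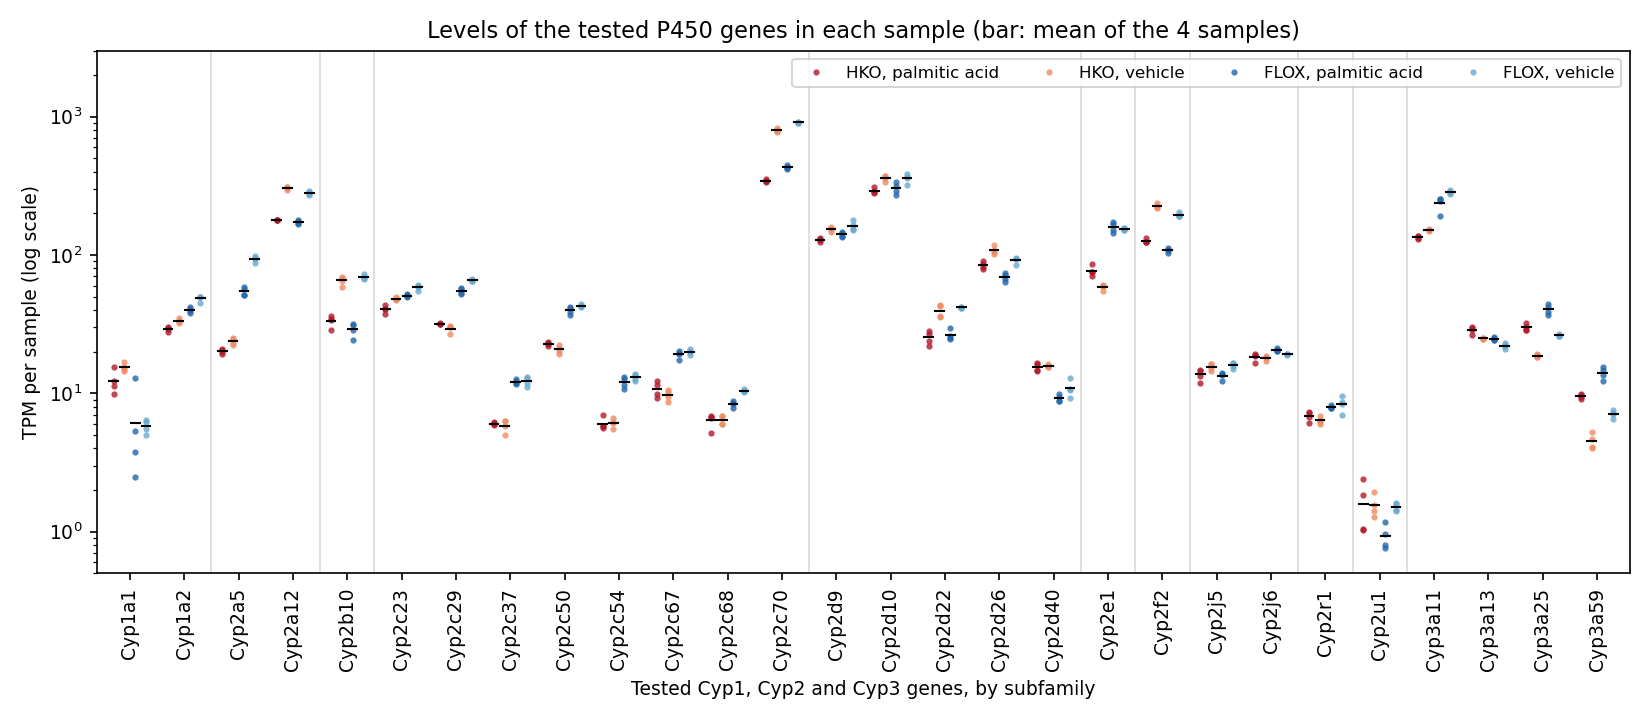
TPM of the 28 tested genes in each of the 16 samples on a log axis, ordered by subfamily, with a bar at the mean of each group of 4. Cyp2u1 lies lowest and Cyp2c70 highest, and all 8 Cyp2c genes have lower means in HKO than in FLOX cells.

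Palmitic acid lowered more P450 genes than it raised, unlike the tested genes as a whole. A gene was called changed at an adjusted p under 0.05, and differences are log2 fold changes of TPM + 1 with their SE. In HKO cells 11 of the 28 tested genes were lower, against 13.1% of all tested genes, and 4 were higher, against 29.4%. In FLOX cells 15 of the 28 were lower, against 11.5% of all tested genes, and 3 were higher, against 23.0%. The median difference of the 28 genes was -0.098 in HKO and -0.22 in FLOX cells, beside medians of 0.11 and 0.096 over all tested genes. Scaling the samples to a common median ratio moved the all-gene medians to 0.0050 in HKO and 0.0053 in FLOX cells, and with it 13 genes were lower and 3 higher in HKO cells and 18 lower and 2 higher in FLOX cells.

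The genes that fell with palmitic acid in both genotypes were Cyp1a2, Cyp2a5, Cyp2a12, Cyp2b10, Cyp2c23, Cyp2c70, Cyp2d9, Cyp2d10, Cyp2d22, Cyp2d26 and Cyp2f2. Cyp3a13, Cyp3a25 and Cyp3a59 rose in both. Over all tested genes the share that fell in both genotypes cannot exceed 11.5%, and the share that rose in both cannot exceed 23.0%. Cyp2e1 was called raised in HKO cells alone, and Cyp2c29, Cyp2c68, Cyp2j5 and Cyp3a11 were called lower in FLOX cells alone. With median-ratio scaling Cyp2j5 (-0.29, adjusted p = 0.00687) and Cyp3a11 (-0.30, adjusted p = 5.91e-04) were called lower in HKO cells as well. Calls in one genotype and not the other do not show a different response, which was tested by itself: the HKO response less the FLOX response was called for 2 of the 28 genes, Cyp2a5 and Cyp2c29, both higher. Over all tested genes 0.152% were called higher and 0.0422% lower in that test. By limma 0 members were lower in it after adjustment and 1 at an unadjusted p under 0.05, Cyp2c70 (-0.13 ± 0.038, adjusted p = 0.297). Beside Cyp2a5 and Cyp2c29, the members higher at that unadjusted level were Cyp2b10, Cyp2c50, Cyp2c68 and Cyp2e1, none called after adjustment.

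**Figure D3:**
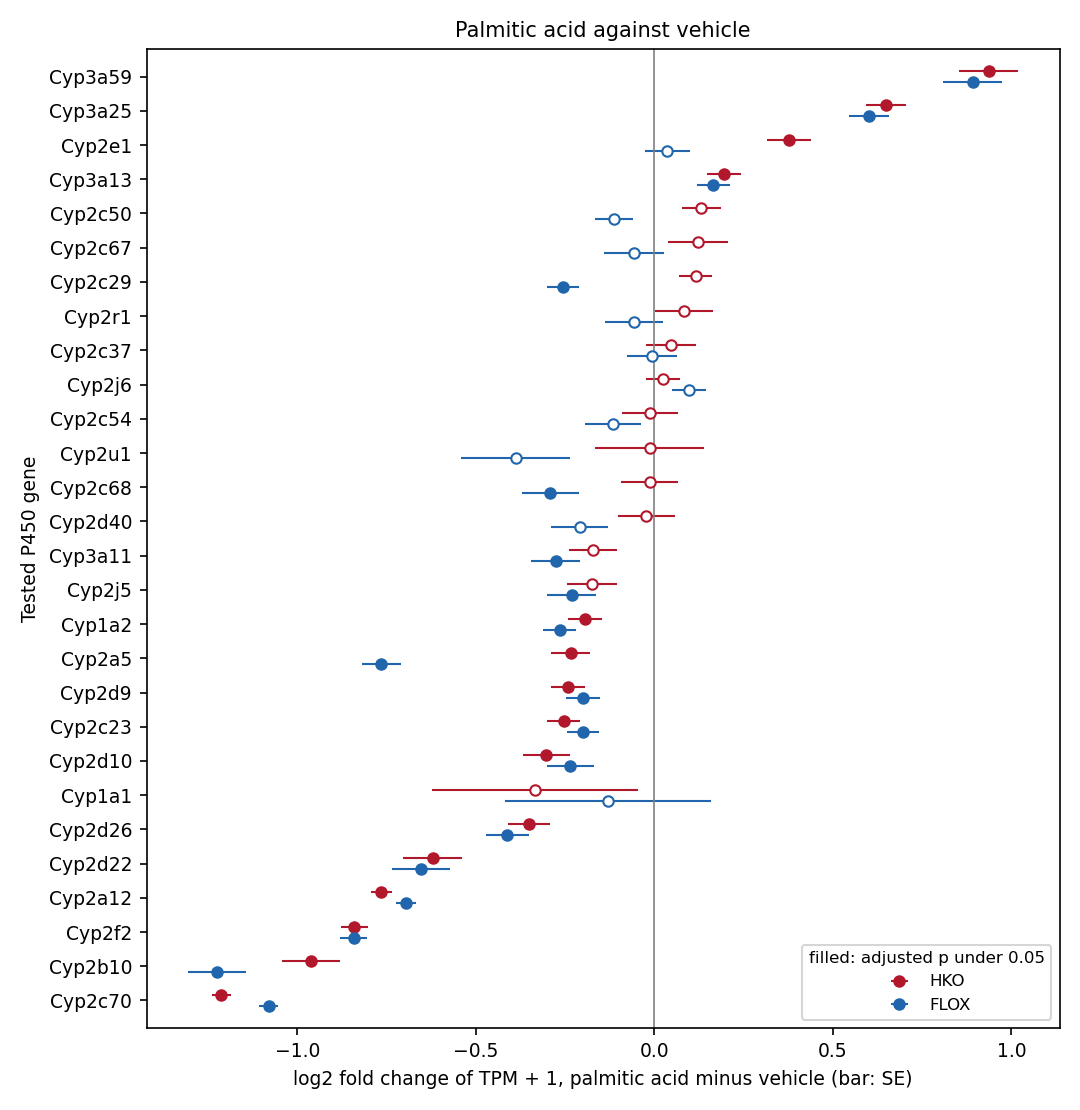
Log2 fold change of TPM + 1, palmitic acid minus vehicle, for the 28 tested genes in HKO (red) and FLOX cells (blue), with SE bars and filled points for an adjusted p under 0.05. Cyp2c70, Cyp2b10 and Cyp2f2 lie lowest and Cyp3a59 and Cyp3a25 highest in both genotypes, and Cyp2a5 shows the widest gap between them.

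Between genotypes, more P450 genes were lower than higher in HKO cells under both treatments. With palmitic acid 15 of the 28 genes were lower in HKO cells, against 5.50% of all tested genes, and 5 were higher, against 4.24%. With vehicle 15 were lower, against 7.56% of all tested genes, and 6 were higher, against 4.11%. The median difference of the 28 genes was -0.26 with palmitic acid and -0.23 with vehicle, beside -0.0077 and -0.023 over all tested genes. Lower under both treatments were 14 genes: all 8 tested Cyp2c genes (Cyp2c23, Cyp2c29, Cyp2c37, Cyp2c50, Cyp2c54, Cyp2c67, Cyp2c68 and Cyp2c70), Cyp1a2, Cyp2a5, Cyp2e1, Cyp3a11, Cyp3a25 and Cyp3a59. Higher under both were Cyp1a1, Cyp2d26, Cyp2d40, Cyp2f2 and Cyp3a13. Over all tested genes the share lower under both treatments cannot exceed 5.50%, and the share higher under both cannot exceed 4.11%. Of the 28 genes, 9 (32.1%) were called in all 4 comparisons of 2 groups, against 3.16% of all tested genes, and only Cyp2u1 in none, against 47.5%. Of the 74 calls of members in these comparisons, 72 (97.3%) had no overlap between the 2 groups of samples, against 84.1% of all 11663 calls of tested genes, and the exceptions were Cyp2d10 with palmitic acid in FLOX cells and Cyp1a1 between genotypes with palmitic acid. The shares over all tested genes were not matched for expression level, and Cyp2u1 had the lowest mean of the 28 genes, 1.39 TPM.

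**Figure D4:**
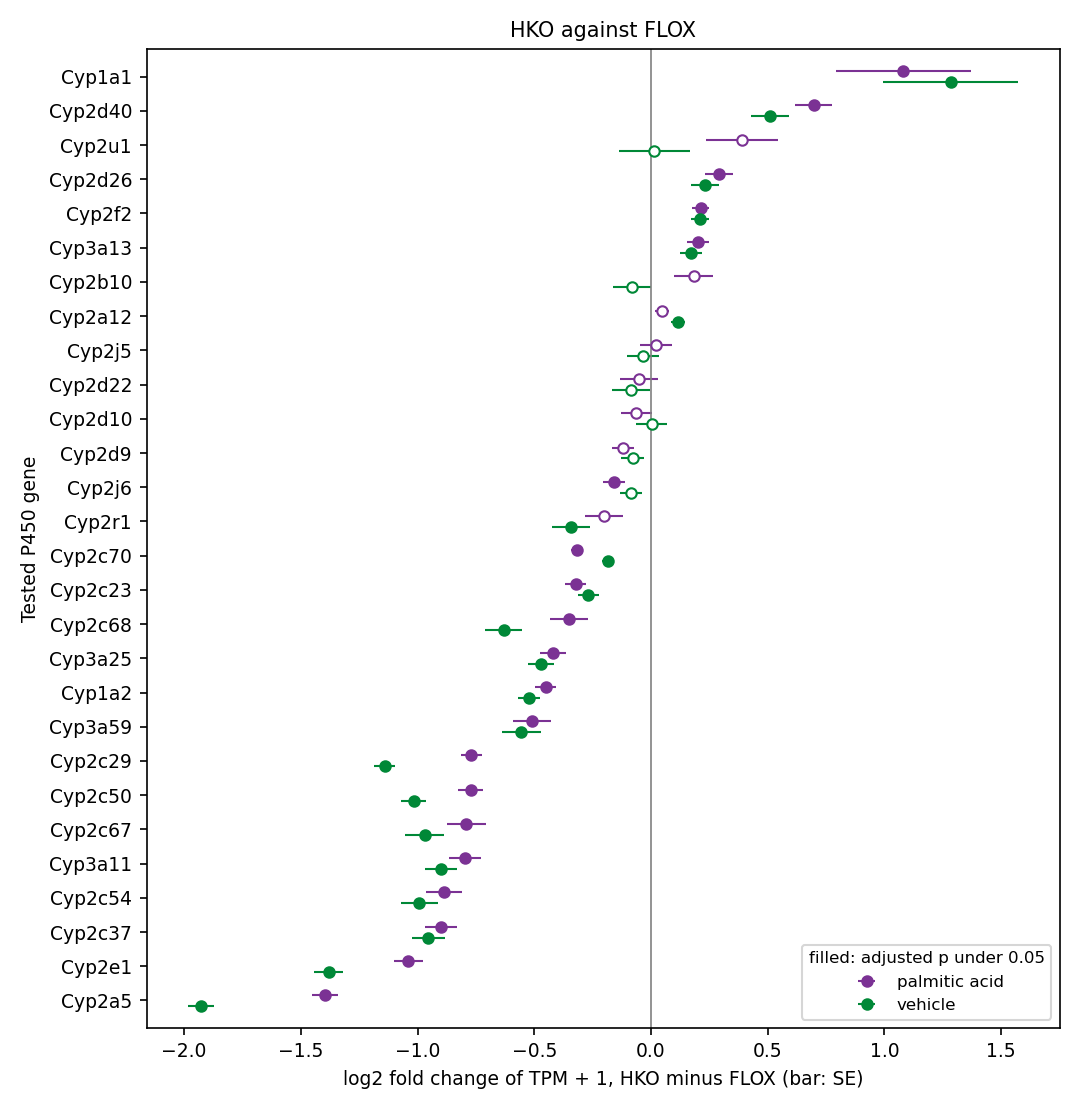
Log2 fold change of TPM + 1, HKO minus FLOX, for the 28 tested genes with palmitic acid (purple) and with vehicle (green), with SE bars and filled points for an adjusted p under 0.05. Cyp2a5, Cyp2e1, Cyp3a11 and most Cyp2c genes lie to the left, and Cyp1a1 and Cyp2d40 furthest to the right.

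The 2 tested family 1 genes differed between genotypes in opposite directions. Cyp1a1 encodes the enzyme most readily induced by aryl hydrocarbons, and Cyp1a2 a constitutive liver enzyme that oxidises caffeine and aromatic amines. Cyp1a1 had 9.85, 12.2, 11.3 and 15.5 TPM in HKO cells with palmitic acid, against 14.5, 16.9, 15.5 and 15.04 TPM in HKO cells with vehicle. It had 2.47, 5.37, 12.9 and 3.74 TPM in FLOX cells with palmitic acid, against 6.44, 4.97, 6.26 and 5.49 TPM in FLOX cells with vehicle. Every HKO sample with vehicle was above every FLOX sample with vehicle, whereas with palmitic acid the groups overlapped through FLOX replicate 3. HKO cells differed from FLOX cells by 1.08 ± 0.29 (adjusted p = 0.0258) with palmitic acid and 1.28 ± 0.29 (adjusted p = 0.00858) with vehicle. The first call was lost without FLOX palmitic acid replicate 1 (0.80, adjusted p = 0.0676) or 4 (0.95, 0.0803), without HKO palmitic acid replicate 2 (1.07, 0.0590) or 4 (0.97, 0.0734), with no filter (0.0756) and with only these groups fitted (0.129). Without FLOX palmitic acid replicate 3 the difference was 1.47 (adjusted p = 5.67e-05). Palmitic acid against vehicle gave -0.33 ± 0.29 (adjusted p = 0.378) in HKO and -0.13 ± 0.29 (adjusted p = 0.761) in FLOX cells. The FLOX value rests on palmitic acid samples that ran from 2.47 to 12.9 TPM, and without replicate 3 it was -0.52 (adjusted p = 0.0346), a call. With only the groups compared, the HKO value was called too (-0.33, adjusted p = 0.0477).

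Cyp1a2 ranged over 27.6 to 30.4 TPM in HKO cells with palmitic acid, 32.5 to 34.8 in HKO cells with vehicle, 38.4 to 42.3 in FLOX cells with palmitic acid and 44.9 to 50 in FLOX cells with vehicle. The 4 groups did not overlap, and the gene was lower both with palmitic acid and in HKO cells. Its differences were -0.19 ± 0.046 with palmitic acid in HKO cells and -0.27 ± 0.046 in FLOX cells, and -0.45 ± 0.046 and -0.52 ± 0.046 for HKO against FLOX with palmitic acid and with vehicle (adjusted p at most 0.00329). These are the 2 members on chromosome 9. The sequence before the start of Cyp1a1 is shown because this gene had the largest rise in HKO cells. Capitals mark GCGTG, the core of the response element bound by AHR, and TATAAA, the TATA box, on either strand (250 bases, 5′ to 3′, RefSeq, build GRCm38.p6).

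Cyp1a1, chr9:57697363-57697612, plus strand: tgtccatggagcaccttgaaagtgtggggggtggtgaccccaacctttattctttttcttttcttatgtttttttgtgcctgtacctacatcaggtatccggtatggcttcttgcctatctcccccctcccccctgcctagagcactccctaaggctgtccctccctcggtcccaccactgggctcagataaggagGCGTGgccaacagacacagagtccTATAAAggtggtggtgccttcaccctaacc

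The GCGTG began at -54 and the TATAAA at -30 relative to the start of the gene. Among the 24 tested genes with a promoter in the table, which spans 250 bases before and 50 after the start, 4 (16.7%) held GCGTG, against 32.5% of all 27025 promoters. TATAAA was found in 14 (58.3%), against 14.2% of all promoters. The tested genes Cyp2c23, Cyp2c54, Cyp2d22 and Cyp2u1 had no entry.

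Cyp2a5 showed the largest genotype difference of all the tested P450 genes. It encodes coumarin 7-hydroxylase, which also oxidises nicotine. The gene had 19.3, 20.6, 20.9 and 19.8 TPM in HKO cells with palmitic acid, against 23.1, 25.3, 24.9 and 22.2 TPM in HKO cells with vehicle. FLOX cells had 51.8, 56.8, 58.4 and 51.7 TPM with palmitic acid, against 93.2, 95.3, 98.1 and 87.9 TPM with vehicle. No groups overlapped, and the highest HKO value was under the lowest FLOX value. HKO cells stood at 36.8% of the FLOX mean with palmitic acid and 25.5% with vehicle, differences of -1.40 ± 0.055 (adjusted p = 3.23e-10) and -1.93 ± 0.055 (adjusted p = 4.97e-12). Palmitic acid lowered it by more in FLOX cells: the difference was -0.23 ± 0.055 in HKO and -0.77 ± 0.055 in FLOX cells, and the HKO response less the FLOX response was 0.53 ± 0.077 (adjusted p = 0.0115). On the linear scale the mean was 84.3% of vehicle in HKO and 58.4% in FLOX cells.

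Cyp2a12, a steroid hydroxylase gene of the same subfamily, fell with palmitic acid in both genotypes and differed between them by little. Its levels were 179.7, 179, 178 and 179.7 TPM in HKO cells with palmitic acid, against 294, 309, 304 and 312 TPM in HKO cells with vehicle. For FLOX cells they were 176, 169, 178 and 169.8 TPM with palmitic acid, against 288, 273, 278 and 285 TPM with vehicle. All palmitic acid samples lay below all vehicle samples, with differences of -0.76 ± 0.029 (adjusted p = 2.80e-11) in HKO and -0.70 ± 0.029 (adjusted p = 9.11e-11) in FLOX cells. HKO against FLOX gave 0.048 ± 0.029 (adjusted p = 0.371) with palmitic acid, where the groups overlapped, and 0.12 ± 0.029 (adjusted p = 0.0157) with vehicle. That call was lost with median-ratio scaling (adjusted p = 0.0518), without the mean-variance trend (0.0627) and without FLOX vehicle replicate 2 (0.0554).

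Cyp2b10, a gene that CAR activators such as phenobarbital induce, was lowered by palmitic acid in both genotypes. Its level was 35.99, 33.8, 34.4 and 28.6 TPM in HKO cells with palmitic acid, against 59.2, 67.9, 65.2 and 69.5 TPM in HKO cells with vehicle. In FLOX cells it was 31.9, 28.96, 24.5 and 31.4 TPM with palmitic acid, against 67.6, 67.8, 68.9 and 72.6 TPM with vehicle. Palmitic acid samples were below vehicle samples without overlap, with differences of -0.96 ± 0.082 (adjusted p = 1.86e-07) in HKO and -1.22 ± 0.082 (adjusted p = 1.62e-08) in FLOX cells. The genotypes overlapped under both treatments, and neither difference between them passed (0.18 ± 0.082 with palmitic acid and -0.081 ± 0.082 with vehicle, adjusted p = 0.202 and 0.614). The other 4 Cyp2b genes were not tested.

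Cyp2c is the largest subfamily, with 15 genes of which 8 were tested, and its enzymes oxidise drugs, retinoids and polyunsaturated fatty acids. Cyp2c70 is set apart by its role in mouse bile acid metabolism, where it makes muricholic acids. Cyp2c70 had 338, 345, 353 and 344 TPM in HKO cells with palmitic acid, against 781, 831, 789.5 and 807 TPM in HKO cells with vehicle. FLOX cells held 424, 421, 447 and 429.8 TPM with palmitic acid, against 923, 915, 908 and 899 TPM with vehicle. The 4 groups were fully separated, and palmitic acid made the larger difference. The mean with palmitic acid was 43.04% of that with vehicle in HKO and 47.2% in FLOX cells, with differences of -1.21 ± 0.027 (adjusted p = 6.73e-14) and -1.08 ± 0.027 (adjusted p = 3.94e-13). HKO against FLOX gave -0.32 ± 0.027 (adjusted p = 1.03e-06) with palmitic acid and -0.18 ± 0.027 (adjusted p = 2.82e-04) with vehicle.

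The other 7 tested Cyp2c genes were lower in HKO cells, beside 5.50% of all tested genes with palmitic acid and 7.56% with vehicle. Palmitic acid was called to lower 3 of the 7 in FLOX cells, against 11.5% of all tested genes. In HKO cells it was called to lower 1, Cyp2c23, a count near the 13.1% of all tested genes. Their summed level was 124 ± 3.9 TPM in HKO cells with palmitic acid, 127 ± 1.7 in HKO cells with vehicle, 197 ± 7.7 in FLOX cells with palmitic acid and 223 ± 4.2 in FLOX cells with vehicle. The HKO sum was thus 0.630 times the FLOX sum with palmitic acid and 0.567 times with vehicle. The sum with palmitic acid was 0.982 times that with vehicle in HKO and 0.884 times in FLOX cells.

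Cyp2c29 was one of the 2 genes whose response to palmitic acid differed between genotypes. It had 32.01, 32, 31.5 and 31.9 TPM in HKO cells with palmitic acid, against 29.96, 26.7, 30.1 and 30.7 TPM in HKO cells with vehicle. Its FLOX levels were 52.2, 56.5, 53.5 and 58 TPM with palmitic acid, against 64.98, 64.7, 66.6 and 67.2 TPM with vehicle. Every HKO sample was below every FLOX sample, with differences of -0.77 ± 0.046 (adjusted p = 1.93e-08) with palmitic acid and -1.14 ± 0.046 (adjusted p = 2.39e-10) with vehicle. Palmitic acid against vehicle gave 0.12 ± 0.046 (adjusted p = 0.0527) in HKO cells and -0.26 ± 0.046 (adjusted p = 4.84e-04) in FLOX cells. The HKO response less the FLOX response was 0.37 ± 0.065 (adjusted p = 0.0344), and this call was lost in 16 of 25 alternatives, the replicate block, median-ratio scaling and quantile normalization among them, with adjusted p up to 0.299. The HKO value was itself called in 5 alternatives, at 0.11 to 0.14 with adjusted p = 0.0379 to 0.0464.

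Cyp2c50, Cyp2c37 and Cyp2c54, close relatives whose products oxidise arachidonic acid, shared one pattern. Cyp2c50 had 23.03, 23.5, 22.1 and 22.8 TPM in HKO cells with palmitic acid, against 19.2, 20.3, 21.2 and 22.5 TPM in HKO cells with vehicle. With palmitic acid FLOX cells had 36.6, 41.4, 38.8 and 42.4 TPM, against 42.6, 42.9, 42.2 and 44.4 TPM with vehicle. The genotypes were apart and the treatments overlapped, with HKO against FLOX at -0.77 ± 0.054 (adjusted p = 1.10e-07) with palmitic acid and -1.02 ± 0.054 (adjusted p = 4.52e-09) with vehicle. Cyp2c37 was measured at 6.18, 5.86, 6.13 and 6.02 TPM in HKO cells with palmitic acid, against 5.78, 6.28, 6.30 and 5 TPM in HKO cells with vehicle. For FLOX cells Cyp2c37 was 11.8, 12.2, 11.8 and 12.8 TPM with palmitic acid, against 13.04, 11.9, 11.1 and 12.9 TPM with vehicle. Again no HKO sample reached a FLOX sample (-0.90 ± 0.070 with palmitic acid and -0.95 ± 0.070 with vehicle). Cyp2c54 showed 6.92, 5.82, 5.61 and 5.79 TPM in HKO cells with palmitic acid, against 6.16, 6.06, 5.52 and 6.60 TPM in HKO cells with vehicle. In FLOX cells Cyp2c54 was at 11.5, 13.1, 10.8 and 12.7 TPM with palmitic acid, against 13.5, 12.7, 13.9 and 12.3 TPM with vehicle. HKO levels were near 50.2% of FLOX levels with palmitic acid and 46.5% with vehicle (-0.89 ± 0.078 and -0.99 ± 0.078). None of the 3 genes passed for palmitic acid in either genotype. Cyp2c50 alone did so in alternatives: it was called lower in FLOX cells with median-ratio scaling (-0.21, adjusted p = 0.00585) and quantile normalization (-0.18, 0.00938), and higher in HKO cells in 4 alternatives (0.12 to 0.17, adjusted p = 0.0226 to 0.0461), 3 of which left out 1 or 2 samples.

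Along chromosome 19 the tested genes follow each other as Cyp2c29, Cyp2c67, Cyp2c68, Cyp2c37, Cyp2c54, Cyp2c50, Cyp2c70 and Cyp2c23, with untested members between some of them. The sequences before the start of Cyp2c37 and Cyp2c50 are shown because these genes, with Cyp2c54 between them, were both lower in HKO cells and had the second highest promoter identity of all pairs, 86.6% (264 of 305 aligned positions). Capitals mark AGTTCA, a hexamer found in elements of nuclear receptors such as CAR and PXR, on either strand.

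Cyp2c37, chr19:39992174-39992423, plus strand: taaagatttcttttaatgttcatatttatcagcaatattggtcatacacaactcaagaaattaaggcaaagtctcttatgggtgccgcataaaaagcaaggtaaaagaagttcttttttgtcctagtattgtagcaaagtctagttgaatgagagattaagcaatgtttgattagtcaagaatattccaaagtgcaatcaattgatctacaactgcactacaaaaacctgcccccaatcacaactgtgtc
Cyp2c50, chr19:40089429-40089678, plus strand: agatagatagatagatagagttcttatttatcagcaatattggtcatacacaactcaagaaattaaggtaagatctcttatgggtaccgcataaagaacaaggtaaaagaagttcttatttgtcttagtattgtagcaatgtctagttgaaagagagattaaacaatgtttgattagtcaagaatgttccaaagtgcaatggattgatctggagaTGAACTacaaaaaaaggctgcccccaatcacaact

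Cyp2c37 held none of the 4 motifs searched in this window, and Cyp2c50 held AGTTCA at -35 on the minus strand. Of the 24 tested genes 2 held AGTTCA (8.33%), against 14.0% of all promoters.

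The remaining tested Cyp2c genes were also lower in HKO cells. Cyp2c67 ranged over 9.20 to 12.3 TPM in HKO cells with palmitic acid, 8.64 to 10.6 in HKO cells with vehicle, 17.4 to 20.4 in FLOX cells with palmitic acid and 19.03 to 20.8 in FLOX cells with vehicle. Its difference between genotypes was -0.79 ± 0.084 with palmitic acid and -0.97 ± 0.084 with vehicle, and palmitic acid had no called effect. Cyp2c68 spanned 5.14 to 6.91 TPM in HKO cells with palmitic acid, 5.98 to 6.86 in HKO cells with vehicle, 7.82 to 8.83 in FLOX cells with palmitic acid and 10.2 to 10.7 in FLOX cells with vehicle. HKO against FLOX gave -0.35 ± 0.080 with palmitic acid and -0.63 ± 0.080 with vehicle, and palmitic acid lowered it in FLOX cells (-0.29 ± 0.080, adjusted p = 0.0101) but was not called in HKO cells (-0.013 ± 0.080, adjusted p = 0.917). With only the groups compared, the genotype call under palmitic acid was lost (-0.35, adjusted p = 0.0690). Cyp2c23, which makes epoxides of arachidonic acid, lay at 37.4 to 43.3 TPM in HKO cells with palmitic acid, 47.5 to 50.04 in HKO cells with vehicle, 49.6 to 52.1 in FLOX cells with palmitic acid and 54.7 to 61.1 in FLOX cells with vehicle. It was lower in all 4 comparisons, at -0.25 ± 0.046 with palmitic acid in HKO cells and -0.20 ± 0.046 in FLOX cells, and at -0.32 ± 0.046 and -0.27 ± 0.046 in HKO against FLOX cells with palmitic acid and with vehicle.

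In the Cyp2d subfamily, related to the human drug-metabolising enzyme CYP2D6, 4 of 5 tested genes fell with palmitic acid in both genotypes. The share lower over all tested genes was 13.1% in HKO and 11.5% in FLOX cells. No Cyp2d gene was called lower in HKO than in FLOX cells, beside 5.50% of all tested genes with palmitic acid and 7.56% with vehicle. Cyp2d10 had 286, 291, 310.3 and 279 TPM in HKO cells with palmitic acid, against 361, 371, 371 and 336 TPM in HKO cells with vehicle. Among FLOX samples it was 317, 293, 272 and 339 TPM with palmitic acid, against 388, 321, 369 and 359 TPM with vehicle. The FLOX groups overlapped and the HKO groups did not, and both differences passed, at -0.30 ± 0.066 (adjusted p = 0.00174) in HKO and -0.24 ± 0.066 (adjusted p = 0.0122) in FLOX cells. Between genotypes Cyp2d10 differed by -0.063 ± 0.066 (adjusted p = 0.651) with palmitic acid and 0.004 ± 0.066 (adjusted p = 0.988) with vehicle, neither past the threshold.

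Cyp2d26 fell with palmitic acid and was higher in HKO cells. It had 86.3, 79.4, 82.5 and 90.9 TPM in HKO cells with palmitic acid, against 102, 105, 118 and 108 TPM in HKO cells with vehicle. The FLOX samples had 67.2, 71.9, 63.4 and 73.9 TPM with palmitic acid, against 85.1, 95.8, 94.1 and 93.9 TPM with vehicle. Within a treatment the genotypes did not overlap. The differences were -0.35 ± 0.060 and -0.41 ± 0.060 with palmitic acid in HKO and FLOX cells, and 0.29 ± 0.060 (adjusted p = 0.00528) and 0.23 ± 0.060 (adjusted p = 0.0206) for HKO against FLOX with palmitic acid and with vehicle. The vehicle call was lost without HKO vehicle replicate 3 (0.19, adjusted p = 0.0711) and without FLOX vehicle replicate 1 (0.19, adjusted p = 0.0601).

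Cyp2d40 was the Cyp2d gene with the largest genotype difference. Its HKO levels were 16.7, 14.4, 14.8 and 16.3 TPM with palmitic acid, against 16.3, 15.7, 15.6 and 15.6 TPM with vehicle. Its FLOX values came to 8.80, 8.79, 9.40 and 9.85 TPM with palmitic acid, against 9.21, 12.9, 10.7 and 10.6 TPM with vehicle. All HKO samples were above all FLOX samples, by 0.70 ± 0.080 (adjusted p = 2.29e-05) with palmitic acid and 0.51 ± 0.080 (adjusted p = 5.14e-04) with vehicle. Palmitic acid was not called in either genotype (-0.023 ± 0.080 in HKO and -0.21 ± 0.080 in FLOX cells, adjusted p = 0.843 and 0.0537). In 6 alternatives it was called lower in FLOX cells, at -0.31 to -0.21 with adjusted p = 0.00932 to 0.0464, among them both other scalings and the fit without FLOX vehicle replicate 1.

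Cyp2d9, a male-biased testosterone 16α-hydroxylase of mouse liver, ranged over 125 to 133 TPM in HKO cells with palmitic acid, 147 to 159 in HKO cells with vehicle, 135 to 146 in FLOX cells with palmitic acid and 151 to 179 in FLOX cells with vehicle. It fell by 0.24 ± 0.048 with palmitic acid in HKO cells and by 0.20 ± 0.048 in FLOX cells on the log2 scale. No genotype difference was called, although with palmitic acid every HKO sample was below every FLOX sample (-0.12 ± 0.048, adjusted p = 0.140). Cyp2d22 was at 22.1 to 28.3 TPM in HKO cells with palmitic acid, 35.9 to 43.5 in HKO cells with vehicle, 24.7 to 29.5 in FLOX cells with palmitic acid and 41.1 to 42.4 in FLOX cells with vehicle. Its differences with palmitic acid were larger, at -0.62 ± 0.082 in HKO and -0.65 ± 0.082 in FLOX cells, again with no call between genotypes.

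Cyp2e1, the ethanol-oxidising P450 of pericentral hepatocytes, was the second most lowered P450 gene in HKO cells. It had 75.7, 70.1, 75.03 and 86.7 TPM in HKO cells with palmitic acid, against 59.9, 55.2, 60.6 and 59.6 TPM in HKO cells with vehicle. FLOX samples stood at 151, 172, 145 and 168 TPM with palmitic acid, against 157, 153, 152 and 157 TPM with vehicle. The HKO groups did not overlap with each other or with FLOX cells, while the FLOX groups overlapped. HKO cells reached 48.3% of the FLOX mean with palmitic acid and 38.03% with vehicle, at -1.04 ± 0.063 (adjusted p = 2.02e-08) and -1.38 ± 0.063 (adjusted p = 8.85e-10). Palmitic acid against vehicle gave 0.38 ± 0.063 (adjusted p = 1.78e-04) in HKO and 0.036 ± 0.063 (adjusted p = 0.693) in FLOX cells. The HKO response less the FLOX response was 0.34 ± 0.089 (adjusted p = 0.237), so that a difference in response was not called.

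The sequences before the start of Cyp2e1 and Cyp2a5 are shown because these genes had the largest falls in HKO cells. Capitals mark TATAAA, the one motif of the 4 searched that lies in this stretch.

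Cyp2e1, chr7:140763569-140763818, plus strand: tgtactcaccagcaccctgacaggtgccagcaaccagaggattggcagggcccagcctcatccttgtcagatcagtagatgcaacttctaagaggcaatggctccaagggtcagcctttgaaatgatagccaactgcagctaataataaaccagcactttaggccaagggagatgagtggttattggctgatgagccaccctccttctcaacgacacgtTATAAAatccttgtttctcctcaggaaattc
Cyp2a5, chr7:26835089-26835338, plus strand: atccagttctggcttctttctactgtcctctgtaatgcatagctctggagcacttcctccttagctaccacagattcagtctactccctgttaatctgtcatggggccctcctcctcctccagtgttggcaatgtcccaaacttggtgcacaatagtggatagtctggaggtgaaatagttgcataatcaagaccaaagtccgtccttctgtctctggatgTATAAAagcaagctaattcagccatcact

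TATAAA began at -31 in Cyp2e1 and at -29 in Cyp2a5.

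Cyp2f2, a periportal P450 that activates naphthalene, fell with palmitic acid and was higher in HKO cells. It had 134, 124, 124 and 124 TPM in HKO cells with palmitic acid, against 220.4, 224, 225 and 238 TPM in HKO cells with vehicle. Its FLOX samples held 104, 113, 109 and 109 TPM with palmitic acid, against 206, 193, 192 and 193 TPM with vehicle. None of the 4 groups overlapped. Palmitic acid gave -0.84 ± 0.038 (adjusted p = 1.41e-10) in HKO and -0.84 ± 0.038 (adjusted p = 2.22e-10) in FLOX cells. HKO against FLOX gave 0.21 ± 0.038 (adjusted p = 0.00166) with palmitic acid and 0.21 ± 0.038 (adjusted p = 0.00167) with vehicle.

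**Figure D5:**
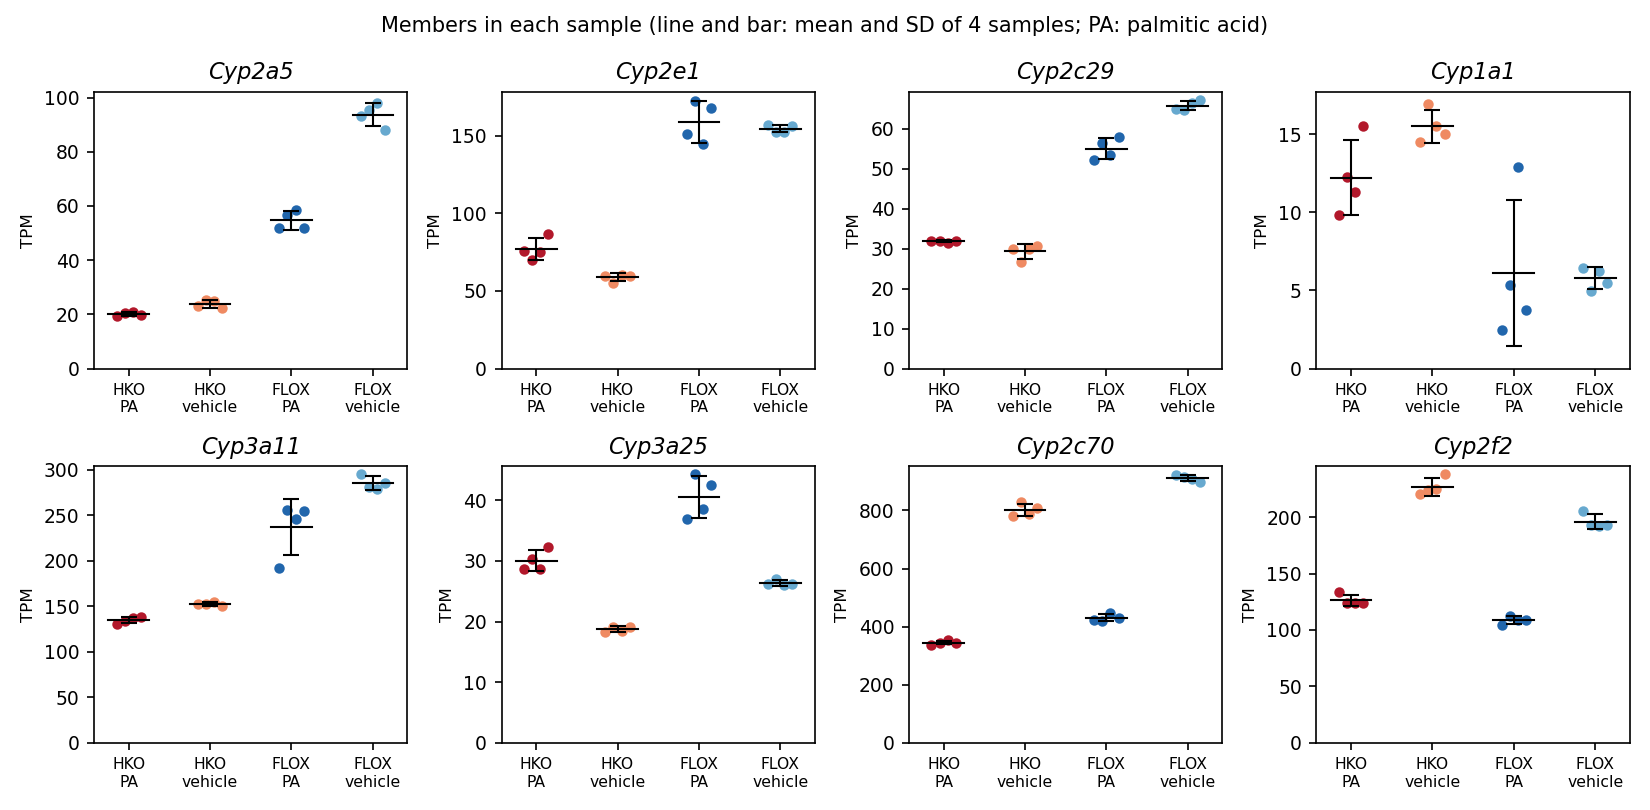
TPM in each sample of 8 P450 genes, with a line and bar for the mean and SD of each group of 4 and axes that start at 0. Cyp2a5, Cyp2e1, Cyp2c29 and Cyp3a11 are lower in HKO cells, Cyp1a1 is higher in HKO cells with vehicle, Cyp3a25 is higher with palmitic acid, and Cyp2c70 and Cyp2f2 are lower with palmitic acid.

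Fewer calls fell on the Cyp2j, Cyp2r and Cyp2u genes. Cyp2j5 and Cyp2j6 belong to the epoxygenases, Cyp2r1 makes 25-hydroxyvitamin D and Cyp2u1 hydroxylates long-chain fatty acids. Cyp2j5 ranged over 11.97 to 14.8 TPM in HKO cells with palmitic acid, 14.4 to 16.2 in HKO cells with vehicle, 12.2 to 14.2 in FLOX cells with palmitic acid and 15.01 to 16.5 in FLOX cells with vehicle. Palmitic acid gave -0.23 ± 0.069 (adjusted p = 0.0167) in FLOX cells, a call lost without FLOX palmitic acid replicate 3 (-0.19, adjusted p = 0.0596), and -0.17 ± 0.069 (adjusted p = 0.0524) in HKO cells. The HKO difference was called in 8 alternatives, at -0.29 to -0.17 with adjusted p = 0.00687 to 0.0449. Cyp2j6 spanned 16.6 to 19.1 TPM in HKO cells with palmitic acid, 17.2 to 18.6 in HKO cells with vehicle, 20.1 to 21.2 in FLOX cells with palmitic acid and 18.9 to 19.4 in FLOX cells with vehicle. It was called lower in HKO than in FLOX cells with palmitic acid (-0.16 ± 0.048, adjusted p = 0.0493), just past the threshold, and that call was lost in 22 of 26 alternatives. Cyp2r1 lay at 6.08 to 7.36 TPM in HKO cells with palmitic acid, 6.01 to 6.91 in HKO cells with vehicle, 7.83 to 8.24 in FLOX cells with palmitic acid and 7 to 9.57 in FLOX cells with vehicle. It was lower in HKO than in FLOX cells with vehicle (-0.34 ± 0.081, adjusted p = 0.0118) and not called with palmitic acid (-0.20 ± 0.081, adjusted p = 0.149). Cyp2u1, at 1.03 to 2.42 TPM in HKO cells with palmitic acid, 1.28 to 1.94 in HKO cells with vehicle, 0.760 to 1.18 in FLOX cells with palmitic acid and 1.42 to 1.61 in FLOX cells with vehicle, passed in no comparison, although its FLOX samples with palmitic acid were all below those with vehicle (-0.39 ± 0.15, adjusted p = 0.0611). In 7 alternatives it was called lower with palmitic acid in FLOX cells, with differences of -0.67 to -0.39 and adjusted p = 0.0238 to 0.0495. Among these were a pseudocount of 0.1, both other scalings and the fit of only the groups compared.

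Cyp3a was the one subfamily in which palmitic acid raised genes in both genotypes. Cyp3a enzymes metabolise a large share of drugs and hydroxylate steroids and bile acids, and Cyp3a11 is the main PXR-induced member in mouse liver. Cyp3a11 had 130.4, 134, 138 and 138 TPM in HKO cells with palmitic acid, against 152, 152, 155 and 150.4 TPM in HKO cells with vehicle. The FLOX values were 192, 255, 246 and 255 TPM with palmitic acid, against 296, 282, 278 and 286 TPM with vehicle. All HKO samples were below all FLOX samples, with differences of -0.80 ± 0.068 (adjusted p = 9.91e-07) with palmitic acid and -0.90 ± 0.068 (adjusted p = 2.82e-07) with vehicle. Palmitic acid lowered it in FLOX cells (-0.28 ± 0.068, adjusted p = 0.00522), and without the low replicate 1 that difference was -0.18 (adjusted p = 3.80e-04). In HKO cells the difference was -0.17 ± 0.068 (adjusted p = 0.0516), just short of the threshold although the groups did not overlap. It was called in 9 alternatives, at -0.30 to -0.17 with adjusted p = 1.21e-04 to 0.0477, among them both other scalings and the fit without FLOX palmitic acid replicate 1.

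Cyp3a25 and Cyp3a59 rose with palmitic acid while being lower in HKO cells. Cyp3a25 had 28.7, 30.3, 28.7 and 32.3 TPM in HKO cells with palmitic acid, against 18.3, 19.2, 18.4 and 19.1 TPM in HKO cells with vehicle. FLOX cells showed 36.9, 44.3, 38.5 and 42.5 TPM with palmitic acid, against 26.1, 27.1, 26.03 and 26.1 TPM with vehicle. No groups overlapped within a genotype or within a treatment. Cyp3a59 was at 9.48, 9.84, 9.70 and 9.07 TPM in HKO cells with palmitic acid, against 4.01, 4.09, 4.69 and 5.28 TPM in HKO cells with vehicle. For FLOX cells it was 12.3, 15.5, 13.5 and 14.8 TPM with palmitic acid, against 7.52, 7.08, 7.16 and 6.56 TPM with vehicle. Palmitic acid brought Cyp3a59 to 211% of the vehicle mean in HKO and 198% in FLOX cells, and Cyp3a25 to 160.1% and 154%. On the log2 scale this was 0.94 ± 0.082 (adjusted p = 2.75e-07) and 0.89 ± 0.082 (adjusted p = 6.70e-07) for Cyp3a59. It was 0.65 ± 0.056 (adjusted p = 2.18e-07) and 0.60 ± 0.056 (adjusted p = 7.40e-07) for Cyp3a25. HKO against FLOX gave -0.51 ± 0.082 with palmitic acid and -0.56 ± 0.082 with vehicle for Cyp3a59, and -0.42 ± 0.056 and -0.47 ± 0.056 for Cyp3a25.

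Cyp3a13 was higher in all 4 comparisons, by small amounts. It had 26.4, 29.7, 28.7 and 30.3 TPM in HKO cells with palmitic acid, against 25.3, 24.9, 24.6 and 25.2 TPM in HKO cells with vehicle. With vehicle and with palmitic acid the FLOX groups stayed close, at 24.4, 25.1, 25.7 and 24.3 TPM with palmitic acid, against 23.1, 21.96, 22.2 and 21.01 TPM with vehicle. Palmitic acid gave 0.20 ± 0.047 (adjusted p = 0.00332) in HKO and 0.17 ± 0.047 (adjusted p = 0.0124) in FLOX cells, and both calls were lost with median-ratio scaling (0.076 and 0.066) and quantile normalization (0.086 and 0.082). HKO against FLOX gave 0.20 ± 0.047 (adjusted p = 0.0111) with palmitic acid and 0.17 ± 0.047 (adjusted p = 0.0255) with vehicle. Leaving out any 1 of HKO vehicle replicates 1, 2 and 4 or FLOX vehicle replicates 2, 3 and 4 ended the vehicle call (0.15 to 0.18, adjusted p = 0.0505 to 0.0858), and fitting only the groups compared ended that with palmitic acid (adjusted p = 0.0738).

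Cyp3a11, Cyp3a25 and Cyp3a59 follow each other on chromosome 5 in the order of the members, and Cyp3a13 lies apart on the same chromosome. The sequences before the start of these 3 neighbours are shown because Cyp3a25 and Cyp3a59 rose together while Cyp3a11 did not. Capitals mark AGGTCA and AGTTCA, hexamers found in elements of nuclear receptors, and TATAAA, on either strand.

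Cyp3a25, chr5:146009619-146009868, minus strand: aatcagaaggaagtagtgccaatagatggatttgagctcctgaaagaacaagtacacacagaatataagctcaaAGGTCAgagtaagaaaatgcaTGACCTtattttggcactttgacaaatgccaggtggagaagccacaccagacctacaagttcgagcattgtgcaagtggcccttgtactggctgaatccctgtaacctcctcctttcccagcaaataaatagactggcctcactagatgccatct
Cyp3a59, chr5:146079008-146079257, plus strand: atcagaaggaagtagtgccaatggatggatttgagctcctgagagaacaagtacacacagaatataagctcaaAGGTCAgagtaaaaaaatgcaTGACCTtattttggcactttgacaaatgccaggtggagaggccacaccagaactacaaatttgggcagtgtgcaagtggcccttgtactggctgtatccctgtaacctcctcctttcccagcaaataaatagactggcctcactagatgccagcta
Cyp3a11, chr5:145879855-145880104, minus strand: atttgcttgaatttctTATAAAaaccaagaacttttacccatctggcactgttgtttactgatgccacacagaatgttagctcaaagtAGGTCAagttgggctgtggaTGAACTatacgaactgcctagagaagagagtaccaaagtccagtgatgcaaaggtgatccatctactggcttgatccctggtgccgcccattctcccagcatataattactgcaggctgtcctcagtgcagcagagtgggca

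The promoters of Cyp3a25 and Cyp3a59 were 95.7% identical (288 of 301 aligned positions), the highest of all 276 pairs of tested genes with an entry, against a median of 52.4% for pairs of 1 subfamily and 46.2% for pairs of different subfamilies. Cyp3a11 matched them at 52.9% and 53.9%. AGGTCA occurred in Cyp3a25 at -176 on the plus and -155 on the minus strand, and in Cyp3a59 at -177 and -156. Cyp3a11 held AGGTCA at -162, AGTTCA at -142 on the minus strand and TATAAA at -234. Cyp3a57, which was at 0 TPM in every sample, held AGGTCA at -174 and -153. Of the 24 tested genes 9 (37.5%) held AGGTCA, against 16.04% of all promoters, and no match printed here overlaps another.

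Some of these values rest on transcripts that share sequence with a relative, and the way the authors' counting split such reads can move them. The share of each gene's 75-base stretches that also occur in another gene of GENCODE M21 was 36.0% for Cyp2c67, 28.5% for Cyp2c68, 22.3% for Cyp2a5 and Cyp2d10, 14.1% for Cyp2c54, 13.8% for Cyp2c37, 13.2% for Cyp3a59, 12.9% for Cyp2d9, 12.3% for Cyp3a25 and 10.4% for Cyp2c50. Cyp3a25 and Cyp3a59 shared theirs with each other, so their separate levels are uncertain. Cyp2c37 and Cyp2c54 shared 9.71% and 9.87% with Cyp2c50, and Cyp2c50 shared 5.70% with Cyp2c37, so the same doubt applies to them. It also applies to Cyp2c67 and Cyp2c68, which shared 24.7% and 23.2% with the untested Cyp2c40. Cyp2a5 shared 15.7% with Cyp2a4, which did not pass 0.0400 TPM in any sample. Cyp2c23, Cyp2c70, Cyp2f2, Cyp2j5, Cyp2j6, Cyp2r1 and Cyp3a13 shared none.

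Among 25 regulators of P450 genes, of which 20 were tested, the xenobiotic receptors PXR and CAR fell with palmitic acid in both genotypes. With palmitic acid 5 regulators were lower and 5 higher in HKO cells, and 3 were lower and 2 higher in FLOX cells. In HKO cells that was 25% lower and 25% higher, against 13.1% and 29.4% of all tested genes. In FLOX cells it was 15% and 10%, against 11.5% and 23.0%. Nr1i2 (PXR) had 11.4 ± 0.84 TPM in HKO cells with palmitic acid and 15.5 ± 1.2 with vehicle, and 13.8 ± 0.89 TPM in FLOX cells with palmitic acid and 17.1 ± 0.45 with vehicle. It changed by -0.41 ± 0.065 in HKO and -0.29 ± 0.065 in FLOX cells. Nr1i3 (CAR) was near 1 TPM and changed by -0.47 ± 0.13 and -0.46 ± 0.13. The hepatic factor Onecut1 also fell in both, by 1.15 ± 0.15 in HKO and 0.44 ± 0.15 in FLOX cells. Rxrb, a partner of these receptors, rose by 0.35 ± 0.072 in HKO and 0.22 ± 0.072 in FLOX cells. Called in HKO cells alone were Ahr (-0.34 ± 0.12), Hnf4a (-0.22 ± 0.067), Foxa1 (0.55 ± 0.11), Foxa3 (0.15 ± 0.056) and Nfe2l2 (0.16 ± 0.050). No regulator was called in the HKO response less the FLOX response.

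Between genotypes 2 regulators were lower and 2 higher in HKO cells with palmitic acid, and 1 each way with vehicle. With palmitic acid that was 10% each way, against 5.50% lower and 4.24% higher of all tested genes. With vehicle it was 5% each way, against 7.56% and 4.11%. Nr1h4, the bile acid receptor FXR, was lower under both treatments (-0.43 ± 0.070, adjusted p = 7.03e-04, with palmitic acid and -0.45 ± 0.070, adjusted p = 4.97e-04, with vehicle). Nr1i2 was lower with palmitic acid (-0.25 ± 0.065), Cebpa and Cebpb were higher with it (0.30 ± 0.077 and 0.68 ± 0.17), and Onecut1 was higher with vehicle (0.55 ± 0.15).

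The partners of the P450 reaction did not move as one. Por, the reductase that feeds electrons to every microsomal P450, rose with palmitic acid while most changed P450 genes fell. Its level was 151 ± 11 TPM in HKO cells with palmitic acid and 97.7 ± 3.1 with vehicle, and 176 ± 11 TPM in FLOX cells with palmitic acid and 113 ± 3.1 with vehicle. This was 0.62 ± 0.052 (adjusted p = 1.74e-07) in HKO and 0.63 ± 0.052 (adjusted p = 2.07e-07) in FLOX cells, and HKO against FLOX gave -0.22 ± 0.052 with palmitic acid and -0.21 ± 0.052 with vehicle. The cytochrome b5 reductase Cyb5r3 fell by 0.58 ± 0.054 and 0.55 ± 0.054, the mitochondrial cytochrome b5 Cyb5b by 0.30 ± 0.061 and 0.27 ± 0.061, and the heme-binding Pgrmc1 by 0.12 ± 0.037 and 0.12 ± 0.037, in HKO and FLOX cells. Cyb5a, Pgrmc2 and Alas1, which starts heme synthesis, were not called.

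Targets of the same receptors outside the P450 families were also measured. Like the other lists here, theirs was chosen with earlier results of these data known, so its counts are only descriptive. Of 13 tested CAR and PXR targets, palmitic acid lowered 9 and raised 1 in HKO cells, and likewise 9 and 1 in FLOX cells. Of all tested genes it lowered 13.1% and raised 29.4% in HKO cells, and 11.5% and 23.0% in FLOX cells. In HKO against FLOX cells 10 of the 13 were lower with palmitic acid and 7 with vehicle, and none was higher. Of all tested genes 5.50% and 7.56% were lower and 4.24% and 4.11% higher. The list's median was -0.49 and -0.41 with palmitic acid in HKO and FLOX cells, and -0.32 and -0.27 in HKO against FLOX cells with palmitic acid and with vehicle. The glutathione transferase Gstm2 changed by -1.08 ± 0.043 in HKO and -0.80 ± 0.043 in FLOX cells, the aldehyde dehydrogenase Aldh1a7 by -0.87 ± 0.055 and -0.67 ± 0.055, and the transporter Slco1a4 by -0.82 ± 0.15 and -0.51 ± 0.15.

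The 5 tested AHR targets outside the P450 families changed in both directions. With palmitic acid 3 were lower and 1 higher in HKO cells, and 2 lower and 1 higher in FLOX cells. Of all tested genes 13.1% were lower and 29.4% higher in HKO cells, and 11.5% and 23.0% in FLOX cells. Tiparp rose by 1.21 ± 0.094 and 0.93 ± 0.094, and Xdh fell by 0.85 ± 0.093 and 0.71 ± 0.093, in HKO and FLOX cells. In HKO against FLOX cells Nqo1, a quinone reductase, was lower (-0.59 ± 0.061 with palmitic acid and -0.47 ± 0.061 with vehicle), and Xdh was higher with vehicle (0.34 ± 0.093).

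Zonated genes outside the P450 families were described by 2 further lists, also chosen with earlier results of these data known. All 6 tested pericentral genes were lower in HKO than in FLOX cells with vehicle and 2 with palmitic acid, and none was higher. Of all tested genes 7.56% were lower with vehicle and 5.50% with palmitic acid. Palmitic acid raised 3 of the 6 in HKO and 2 in FLOX cells, against 29.4% and 23.0% of all tested genes. Glul changed by 1.27 ± 0.077 and 1.00 ± 0.077 with palmitic acid in HKO and FLOX cells, Oat by 0.68 ± 0.11 and 0.42 ± 0.11, and Rgn differed by -0.90 ± 0.042 and -1.09 ± 0.042 in HKO against FLOX cells with palmitic acid and with vehicle. The pericentral list summed to 91.2 to 99.9 TPM in HKO cells with palmitic acid, 58.6 to 60.9 in HKO cells with vehicle, 118 to 139 in FLOX cells with palmitic acid and 100.4 to 104 in FLOX cells with vehicle.

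Of the 10 periportal genes, 7 were higher in HKO than in FLOX cells with palmitic acid and 5 with vehicle, and none was lower. Of all tested genes 4.24% and 4.11% were higher. Palmitic acid lowered 6 and raised 1 of the 10 in HKO cells, and lowered 7 in FLOX cells. Of all tested genes it lowered 13.1% and raised 29.4% in HKO cells, and 11.5% and 23.0% in FLOX cells. Hal differed by 0.77 ± 0.16 and 0.63 ± 0.16 in HKO against FLOX cells with palmitic acid and with vehicle, Cdh1 fell by 0.51 ± 0.083 and 0.78 ± 0.083 with palmitic acid in HKO and FLOX cells, and Pck1 rose by 1.12 ± 0.22 in HKO cells. Beside these lists, the pericentral Cyp2e1, Cyp1a2 and Cyp2a5 were lower and the periportal Cyp2f2 was higher in HKO cells. Palmitic acid lowered Cyp1a2 (-0.19 in HKO and -0.27 in FLOX cells) and Cyp2a5 (-0.23 and -0.77), while the pericentral list summed higher with it. Cyp2e1 changed by 0.38 and 0.036 with palmitic acid, and Cyp2f2 by -0.84 and -0.84, in HKO and FLOX cells. The part of zonation in the P450 differences was not tested.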

How the data were processed

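Stranded total RNA libraries of 16 samples were sequenced. The authors deposited TPM with 2 decimals. Per the submitters' processing notes the tools included RSEM 1.3.3, and the genome build listed there, GRCh38.p13, is human and cannot be that of mouse IDs. Aligner and annotation: not given in the sources used here. Since TPM holds no read totals, depth is unknown and intervals for counting error are left out. Columns summed to 975816 to 984870 TPM.

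Symbols matched 52083 IDs (94.0%). Tests covered the 11858 genes with 4 or more samples at 1 TPM or above. They used log2(TPM + 1), a pseudocount of 1, in limma 3.58.1 in R 4.3.3: a mean per group over all 16 samples, a mean-variance trend, two-sided tests, Benjamini-Hochberg adjustment over all genes tested and a threshold of 0.05. The fit was checked on simulated data, with 200 genes changed in each run. For the HKO response less the FLOX response it recovered 3.5%, 43% and 86% of log2 changes of 0.3, 0.5 and 1. False calls made up 12.5%, 10.4% and 4.97% there. For palmitic acid in FLOX cells recovery was 31%, 67% and 91.5%. For HKO against FLOX with vehicle it was 32%, 61.5% and 94.5%. These rates average over all tested genes, with far fewer changed than the 2726 higher and 1358 lower with palmitic acid in FLOX cells. They do not give the recovery for the P450 genes. A response difference that was not called can still be present. Promoters (RefSeq, GRCm38.p6) were aligned with Biopython 1.88. The members and 16 gene lists were chosen with earlier results of these data known; some list genes enter the counts but are not reported here by name. By rule, every tested member is named, and sample values are given for the 5 highest and for up to 4 per direction and comparison with the largest called changes. The alternatives tried were scaling by median ratios, quantile normalization, sample quality weights, the replicate block, fits of only the groups compared or without the trend, filters at 5 TPM or none, a pseudocount of 0.1, each sample left out, and, added after the data were seen, both FLOX libraries numbered 1 left out.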

Additional observations from a re-analysis of the deposited data

Results flagged for a closer look

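The response to palmitic acid differed between genotypes, by the test of the difference itself, for Cyp2a5 (0.53 ± 0.077 on the log2 scale, HKO response minus FLOX response) and for Cyp2c29 (0.37 ± 0.065). Both HKO responses were above the FLOX ones. The Cyp2a5 call held in every alternative run, with a difference of 0.43 to 0.56, and the Cyp2c29 difference ran from 0.32 to 0.40. The Cyp2c29 call was lost in 16 of 25 alternatives, with adjusted p up to 0.299.

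In 9 of 112 groups of 4 samples 1 sample stood far from the other 3, where chance flags about 1 in 20 groups. In HKO cells with palmitic acid these were replicate 1 for Cyp2c54 (6.92 TPM, others 5.61 to 5.82) and for Cyp2f2 (133.59 TPM, others 123.72 to 123.89), and replicate 3 for Cyp2c29 (31.48 TPM, others 31.92 to 32.01) and for Cyp2c68 (5.14 TPM, others 6.68 to 6.91). In HKO cells with vehicle it was replicate 1 for Cyp2d40 (16.27 TPM, others 15.60 to 15.68). In FLOX cells with palmitic acid it was replicate 1 for Cyp3a11 (191.64 TPM, others 245.98 to 255.35). In FLOX cells with vehicle these were replicate 1 for Cyp2f2 (205.85 TPM, others 192.02 to 193.04), replicate 2 for Cyp3a25 (27.06 TPM, others 26.03 to 26.14) and replicate 3 for Cyp1a2 (44.87 TPM, others at least 49.42).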

How the results depend on the processing

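Of the 76 calls of members over the 5 comparisons, 65 held in every one of the 26 alternatives run, 11 were lost in at least 1, and 0 changed direction. Members higher in HKO than in FLOX cells with palmitic acid numbered 3 with only the groups compared, in place of 5. Members higher in the HKO response less the FLOX response numbered 1 in place of 2 with median-ratio scaling, with quantile normalization, with no mean-variance trend, with the replicate block and without both FLOX libraries numbered 1, and 1 to 2 when single samples were left out. Only the groups compared gives no other value for that test. After removal of the group means, same-numbered samples of a genotype correlated at -0.15 to 0.086, and 3 of 8 did so best with their own number. No pairing by number was thus seen, but these values cannot show whether same-numbered samples share a mouse or culture. The replicate block was a fixed term for the palmitic acid comparisons and the response difference. For HKO against FLOX it was a correlation within same-numbered samples of a genotype, estimated at -0.15. The groups compared there share no block, so it is a weak check of those calls. Under the replicate block with palmitic acid 11 were lower and 4 raised in HKO cells, 15 and 3 in FLOX cells, and in HKO against FLOX 14 and 5 with palmitic acid and 15 and 6 with vehicle. The cause of these changes was not tested. Without depth, low genes such as Cyp2u1 are the least certain.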
